A study of Homo sapiens with 15 samples.

Results

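The genes described are the 10 enzymes of serine synthesis and of the folate cycle that carries carbon units from serine: PHGDH, PSAT1, PSPH, SHMT1, MTHFD1, SHMT2, MTHFD2, MTHFD2L, MTHFD1L and ALDH1L2. They were taken by name, each matched 1 row of a table of read counts for 60670 genes, and all 10 were among the 18563 genes with enough counts to be tested. HT-1080 is an established human fibrosarcoma cell line. The study compared 5 groups of 3 libraries of its mRNA. Cycling cells received the vehicle DMSO and are labelled 6 h. To make cells senescent, a dominant negative mutant of TRF2, a protein that caps telomeres, was expressed for 6 days. These cells were then given DMSO or 1 uM of the kinase inhibitor GNF-7 for 6 h or 24 h. No cycling group with GNF-7, and no cycling group at 24 h, was analysed here, so an effect of GNF-7 can be read in senescent cells only. The labels call the libraries biological replicates without saying whether they came from separate cultures, so p-values measure the spread between these libraries.

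Cells make serine from a glycolytic intermediate in consecutive steps catalysed by PHGDH, PSAT1 and PSPH. Serine hydroxymethyltransferase then moves a carbon unit from serine to tetrahydrofolate and leaves glycine, in the cytosol by SHMT1 and in mitochondria by SHMT2. In mitochondria, MTHFD2 or MTHFD2L oxidises the folate-bound unit and MTHFD1L releases it as formate, which the cytosolic enzyme MTHFD1 joins to folate again for purine and thymidylate synthesis. ALDH1L2 is the mitochondrial enzyme that oxidises formyl-tetrahydrofolate to carbon dioxide with formation of NADPH, and ALDH1L1 is its cytosolic relative. Several of these genes are textbook targets of ATF4, the transcription factor of the integrated stress response. GCN2, the kinase in the study's title, acts upstream of ATF4. RNA from bulk cultures was measured, so fewer cells of a kind and less RNA per cell cannot be told apart, and transcript levels say nothing of enzyme activity.

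Library totals ranged from 25991007 to 32323393 counts, of which the 10 genes together took 0.042 to 0.162%. The lowest counts in a library were 218 for MTHFD2L and 219 for SHMT1, and the highest was 12967 for PSAT1. Levels are given as CPM, a gene's count scaled to the size of its library. Mesenchymal markers were abundant, with VIM at 3350 to 4500 CPM and FN1, CD44 and SPARC at 602 CPM or more in every library, while the epithelial and leukocyte markers EPCAM, CDH1, KRT5, PTPRC and CD3E held at most 7 counts in any library. The endothelial marker PECAM1 held 7 to 32 counts. Some mesenchymal markers moved with GNF-7 at 24 h: SPARC was at 623 ± 18.5 CPM against 3250 ± 238 CPM in vehicle, FN1 at 860 ± 27.2 against 1890 ± 90.5 CPM, and CD44 at 989 ± 21.3 against 1440 ± 69.8 CPM. Their part in the results was not tested. TERF2, the gene of TRF2, stood at 58.2 ± 3.65 CPM (SD, n = 3) in the cycling group, and in the senescent vehicle group at 6 h it stood at 287 ± 8.17 CPM. It was lower with GNF-7 than with vehicle, at 222 ± 8.60 CPM at 6 h, and at 132 ± 5.38 against 220 ± 7.26 CPM at 24 h. MKI67, a marker of cycling cells, went from 509 ± 24.3 CPM in cycling to 149 ± 3.35 CPM in senescent vehicle cells at 6 h. With GNF-7 it was at 114 ± 1.84 CPM at 6 h, and at 39.1 ± 4.34 against 125 ± 4.72 CPM at 24 h. CDKN1A went from 186 ± 2.54 to 501 ± 8.96 CPM in senescence. With GNF-7 it was at 518 ± 17.4 CPM at 6 h, and at 468 ± 8.95 against 560 ± 8.93 CPM at 24 h. The part of these genes in the results was not tested. The share of counts from mitochondrially encoded genes moved with the groups, from a median of 4.20% in cycling cells to 11.7% and 17.0% in senescent vehicle cells at 6 h and 24 h and 13.8% and 23.2% after GNF-7. Those genes were also removed before filtering, scaling and testing. In that fit each of the 10 genes stayed on the same side of the threshold in senescence and in both comparisons of GNF-7 with vehicle. The part of the mitochondrially encoded genes in the results beyond that fit was not tested.

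Promoter windows from RefSeq (GRCh38.p14), reaching from 250 bases before to 50 bases after an annotated start, were found for 7 of the 10 genes. PSPH, SHMT2 and ALDH1L2 had none. The windows were searched on both strands for TGATGNAA, the composite element bound by ATF4 with C/EBP proteins, and for CACGTG, the E-box core. TGATGNAA was found in 1 of the 7 genes and in 4.46% of all 27305 genes with a window (3.62% of 35116 windows). CACGTG was found in 2 of the 7 and in 8.77% of all genes (7.26% of windows). The windows of PHGDH, PSAT1, SHMT1, MTHFD2 and MTHFD2L held neither motif. PSAT1, MTHFD2 and PHGDH rose more with GNF-7 at 6 h than MTHFD1L did (log2 fold changes 2.42, 2 and 1.85 against 0.80). Whether the motifs have a part in these changes was not tested, and sequence outside the windows was not searched. All 3 matches found are printed with their surroundings. Capitals mark the motif, and all are on the plus strand.
MTHFD1L TGATGNAA, chr6:150866346-150866375: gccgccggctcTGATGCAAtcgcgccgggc
MTHFD1L CACGTG, chr6:150866320-150866349: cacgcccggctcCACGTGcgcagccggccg
MTHFD1 CACGTG, chr14:64388326-64388355: ccagtccctaagCACGTGggttgggttgtc
The composite element of MTHFD1L begins 129 or 90 bases before the start, or at base 25 of the transcript, depending on the annotated start used. Not every one of the 4 windows of MTHFD1L held it. The E-box of MTHFD1 begins 15 bases before its start. These matches are descriptions of the letters in the windows and show no binding.

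Senescence was examined first, in vehicle at 6 h. Each of the 10 genes fell, to between 0.254 of the cycling level for PSAT1 and 0.662 for MTHFD2L. A gene was called when its adjusted p from the edgeR quasi-likelihood test, with Benjamini-Hochberg adjustment over all genes, was under 0.05. By this rule 0 of the 10 were called higher and 10 lower, where 35.6% of all tested genes were called higher and 34.4% lower. The median log2 fold change of the 10 was -1.38, against 0.06 over all genes. In the plot of levels by library, the 3 cycling libraries lay above the 3 senescent vehicle libraries at 6 h for each of the 10 genes, a separation also seen for 71.5% of all genes in either direction.

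**Figure D1:**
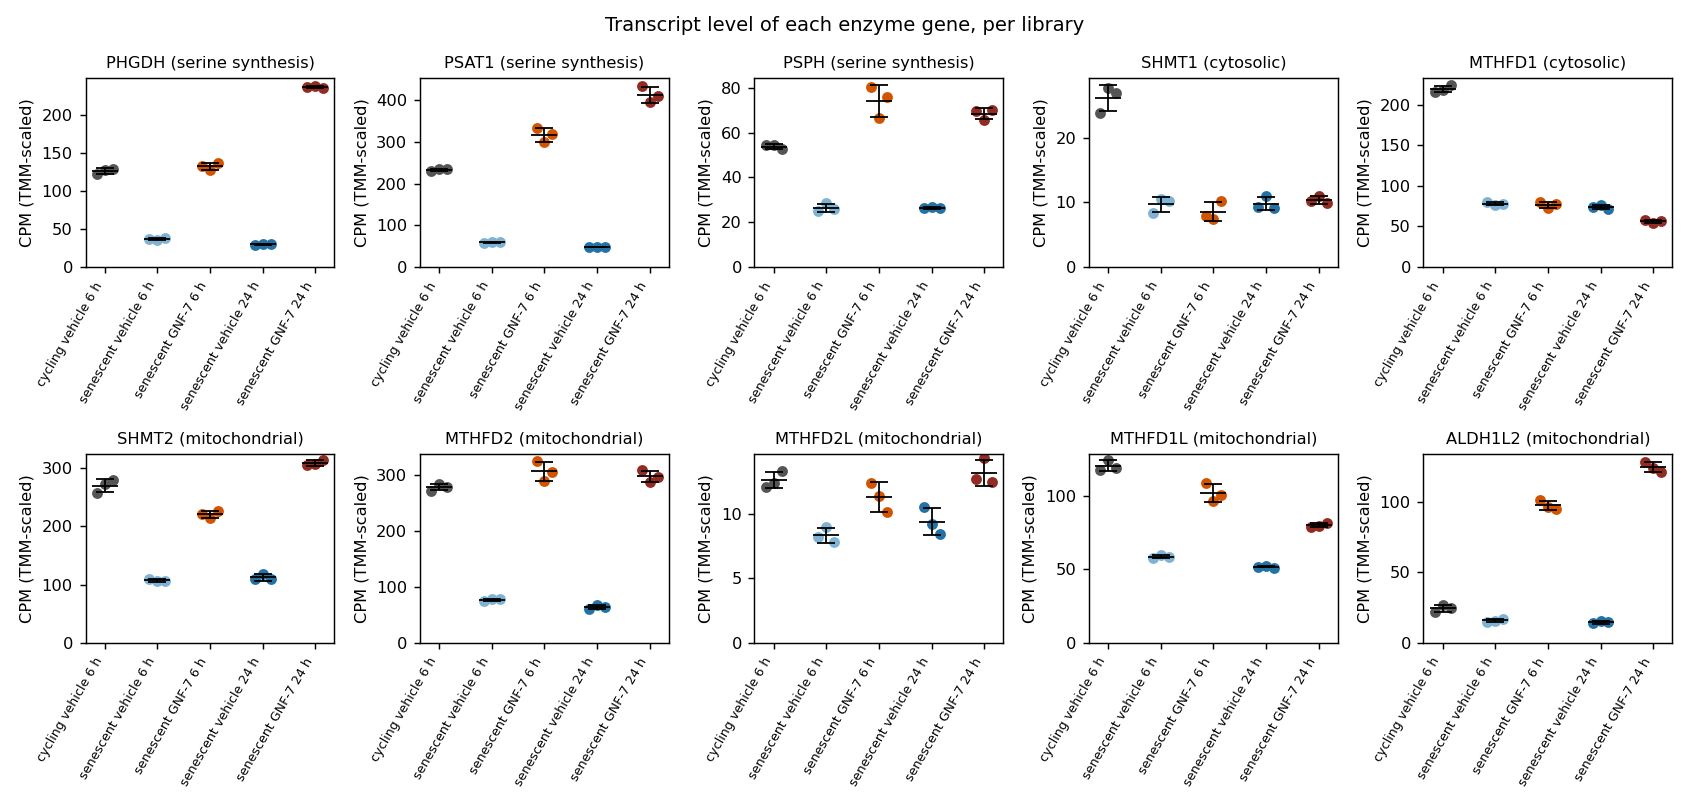
Transcript level in CPM (TMM-scaled, vertical axes from 0) of each of the 10 genes in the 5 groups. Points are libraries and the black marks the mean and SD of 3 libraries. PHGDH, PSAT1, SHMT2, MTHFD2 and ALDH1L2 are low in both senescent vehicle groups and high in both GNF-7 groups, while SHMT1 and MTHFD1 are low in all 4 senescent groups.

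PHGDH (ENSG00000092621, GRCh38 chromosome 1, 119648411 to 119744226, plus strand) encodes the dehydrogenase that opens serine synthesis. Its 3 cycling libraries were at 122, 128 and 129 CPM and its senescent vehicle libraries at 36.9, 36.1 and 37.7 CPM. The log2 fold change was -1.78 (SE 0.045, edgeR adjusted p 2.73e-42). PSAT1 (ENSG00000135069, chromosome 9, 78297143 to 78330093, plus strand), the aminotransferase of the next step, was at 230, 235 and 234 CPM in cycling and at 58.6, 59.3 and 59.7 CPM in senescent vehicle cells. This was the largest fall of the 10 (log2 fold change -1.98, SE 0.042, edgeR adjusted p 2.82e-46). PSPH (ENSG00000146733, chromosome 7, 56011051 to 56051604, minus strand) encodes the phosphatase that releases serine. It fell less, from 53.8 ± 1.04 to 26.5 ± 1.66 CPM (SD, n = 3), with a log2 fold change of -1.02.

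Cytosolic and mitochondrial enzymes of the folate cycle both fell in senescence. SHMT1 (ENSG00000176974, chromosome 17, 18327860 to 18363563, minus strand) went from 26.2 ± 2.01 to 9.69 ± 1.11 CPM, and MTHFD1 (ENSG00000100714, chromosome 14, 64388031 to 64463457, plus strand) from 219 ± 4.13 to 78.0 ± 2.13 CPM. Their log2 fold changes were -1.44 (SE 0.101) and -1.49 (SE 0.043). Among the mitochondrial enzymes, MTHFD2 (ENSG00000065911, chromosome 2, 74198562 to 74217565, plus strand) fell most, from 278 ± 5.22 to 76.6 ± 1.61 CPM (log2 fold change -1.86). SHMT2 (ENSG00000182199, chromosome 12, 57229327 to 57234935, plus strand) fell by 1.33 on the log2 scale and MTHFD1L (ENSG00000120254, chromosome 6, 150865549 to 151101887, plus strand) by 1.04. ALDH1L2 (ENSG00000136010, chromosome 12, 105019784 to 105084577, minus strand) fell by 0.64 and MTHFD2L (ENSG00000163738, chromosome 4, 74114174 to 74303099, plus strand) by 0.60, the smallest falls of the 10. The largest edgeR adjusted p among the 10 was 1.49e-06, that of MTHFD2L.

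The second comparison asked what GNF-7 did in senescent cells within 6 h. All 3 serine synthesis genes and all 5 mitochondrial genes rose, and neither cytosolic gene was called. That makes 8 of 10 called higher and 0 lower, where 17.9% of all tested genes were called higher and 21.4% lower. The median log2 fold change of the 10 was 1.27, against 0.01 over all genes. The plot of fold changes shows the 2 cytosolic genes at 0 within their intervals, apart from the other 8.

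**Figure D2:**
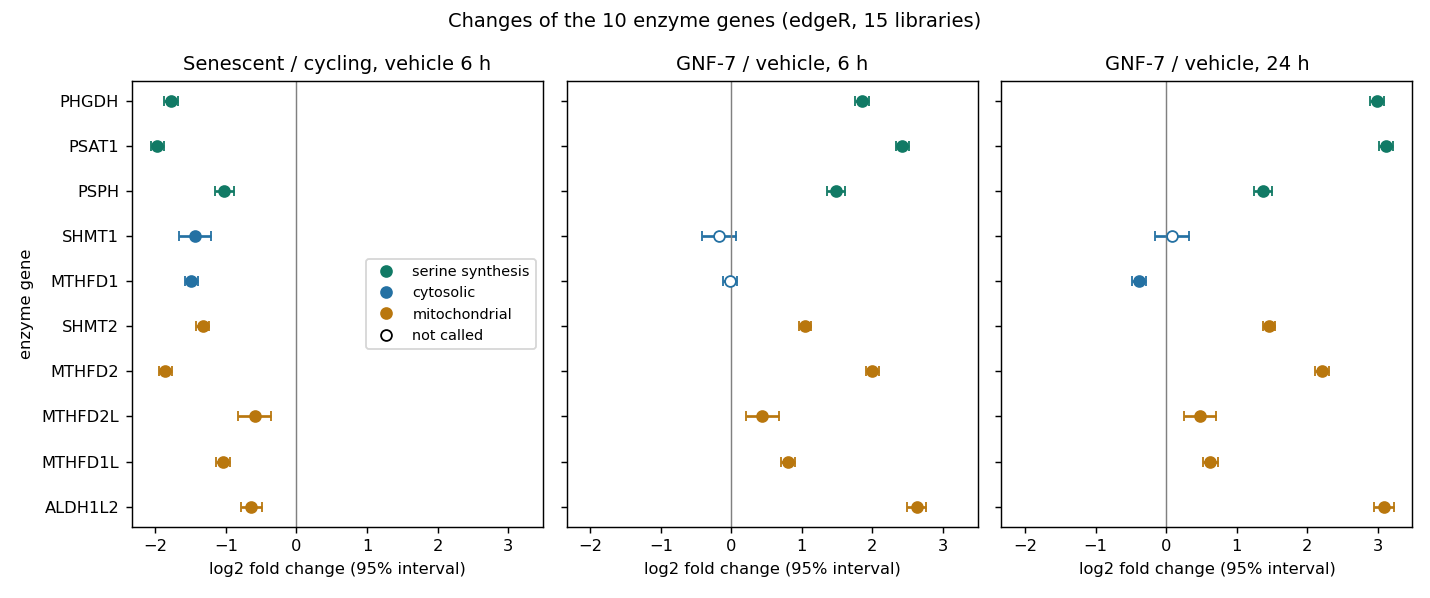
Log2 fold change (horizontal axes, with 95% intervals) of the 10 genes in 3 comparisons, coloured by role. Filled points are called and open points are not. All 10 lie below 0 in senescence, and after GNF-7 only SHMT1 and MTHFD1 do not lie above 0 beyond their intervals.

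In serine synthesis, PSAT1 rose most at 6 h. Its GNF-7 libraries were at 334, 300 and 318 CPM, against 58.6 to 59.7 CPM in vehicle, a 5.36-fold increase (log2 fold change 2.42, SE 0.042, edgeR adjusted p 2.95e-50). PHGDH rose 3.60-fold, to 133, 128 and 137 CPM (log2 fold change 1.85, SE 0.044, edgeR adjusted p 1.53e-42). PSPH rose 2.81-fold to 80.6, 66.6 and 75.8 CPM, the second library being the lowest of the 3 for PSAT1, PHGDH and PSPH alike. No GNF-7 library overlapped a vehicle library at 6 h for any of these genes, a separation seen for 47.7% of all genes in either direction.

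Among the mitochondrial enzymes, ALDH1L2 showed the largest rise of the 10 genes and ranked 73 by fold among all tested genes. Its vehicle libraries at 6 h were at 14.9, 15.4 and 17.0 CPM and its GNF-7 libraries at 101, 96.4 and 94.9 CPM, a 6.18-fold increase (log2 fold change 2.63, SE 0.061, edgeR adjusted p 8.6e-43). MTHFD2, the dehydrogenase and cyclohydrolase, rose 4-fold, from 74.7, 77.2 and 77.7 to 324, 290 and 305 CPM (edgeR adjusted p 1.19e-45). SHMT2 rose 2.06-fold, from 110, 106 and 106 to 222, 215 and 227 CPM. MTHFD1L, the formate-releasing synthetase, rose 1.75-fold to 102 ± 6.16 CPM (SD, n = 3). MTHFD2L, the less abundant homologue of MTHFD2, rose 1.36-fold, from 8.33 ± 0.590 to 11.3 ± 1.17 CPM (edgeR adjusted p 0.000576). The mitochondrial genes thus spanned log2 fold changes from 0.44 to 2.63, and both ends lay outside each other's 95% intervals.

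The cytosolic enzymes went without a called change at 6 h. SHMT1 was at 8.41, 10.5 and 10.2 CPM in vehicle and 7.91, 7.51 and 10.3 CPM after GNF-7, and the groups overlapped. Its log2 fold change was -0.17 with a 95% interval from -0.42 to 0.07 (edgeR adjusted p 0.218). Without replicate 3 of GNF-7 at 6 h, the highest of the treated libraries, the value was -0.33 and was called (edgeR adjusted p 0.0254), so 1 library decides that call. MTHFD1 was at 80.4, 76.3 and 77.3 CPM in vehicle and at 79.6, 72.7 and 78.0 CPM after GNF-7. Its log2 fold change was -0.02, with an interval from -0.12 to 0.08 (edgeR adjusted p 0.731). It turned to 0.03 when genes under a mean of 5 CPM were removed and to 0.03 without replicate 2 of GNF-7 at 6 h, without being called in either.

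At 24 h of GNF-7 the same 3 serine synthesis genes and 5 mitochondrial genes were higher than in vehicle, and MTHFD1 was lower. Of the 10 genes, 8 were called higher, 1 lower and 1 was not called, where 29.3% of all genes were called higher and 29.7% lower. The median log2 fold change of the 10 was 1.42, against 0.04 over all genes. The 8 genes called higher at 24 h were all among the 8 called at 6 h. The share of all genes called higher at both times was not taken, so this overlap has no background beside it. The GNF-7 and vehicle libraries at 24 h did not overlap for 9 of the 10 genes, SHMT1 being the exception, and for 63.2% of all genes.

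PSAT1 reached 433, 396 and 410 CPM after 24 h of GNF-7, against 47.6, 47.9 and 47.4 CPM in vehicle, an 8.67-fold difference (log2 fold change 3.12, SE 0.043, edgeR adjusted p 1.49e-55). PSAT1 had the smallest p of all tested genes in this comparison. PHGDH was at 237, 238 and 236 CPM against 28.7, 30.5 and 30.2 CPM, a 7.97-fold difference (log2 fold change 2.99). ALDH1L2 was at 128, 124 and 121 CPM against 13.6, 15.7 and 14.6 CPM, an 8.52-fold difference (log2 fold change 3.09). These 3 genes stood at a similar fold, and the 95% intervals of PSAT1 (3.02 to 3.21) and ALDH1L2 (2.95 to 3.23) overlapped.

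MTHFD2 was 4.63-fold higher after GNF-7 at 24 h, at 308, 288 and 296 CPM against 60.9, 67.5 and 64.4 CPM. SHMT2 was 2.75-fold higher, at 305, 308 and 314 CPM against 109, 119 and 109 CPM, and PSPH was 2.58-fold higher, at 68.5 ± 2.43 against 26.5 ± 0.448 CPM (SD, n = 3). MTHFD1L and MTHFD2L again rose least, 1.54-fold and 1.40-fold (edgeR adjusted p 1.86e-18 and 6.76e-05). MTHFD1 was at 58.2, 54.7 and 56.6 CPM after GNF-7 and 74.1, 76.2 and 71.7 CPM in vehicle, with no overlap. Its log2 fold change was -0.39 (SE 0.045, edgeR adjusted p 3.01e-11). SHMT1 was at 10.2, 11 and 9.86 CPM after GNF-7 and 9.25, 11 and 9.21 CPM in vehicle, a log2 fold change of 0.08 with an interval from -0.16 to 0.32 (edgeR adjusted p 0.556).

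The difference between the effects at 24 h and at 6 h was tested directly as an interaction. The effect of GNF-7 was greater at 24 h for 5 of the 10 genes and lower for 2, where 12.8% of all genes were called higher and 18% lower. The median difference of the 10 was 0.23. PHGDH had the largest difference, 1.15 on the log2 scale (SE 0.064, edgeR adjusted p 3.09e-23), followed by PSAT1 at 0.69, ALDH1L2 at 0.46, SHMT2 at 0.42 and MTHFD2 at 0.21. For MTHFD2 the GNF-7 level did not rise between the times, at 306 ± 16.9 CPM at 6 h and 298 ± 10.1 CPM at 24 h. Its vehicle level went from 76.6 ± 1.61 to 64.3 ± 3.30 CPM. MTHFD1 had a difference of -0.37 and MTHFD1L of -0.18 (edgeR adjusted p 3.06e-06 and 0.0316). The call of MTHFD1L was lost when 1 of 6 libraries was left out, namely replicates 1 and 3 of vehicle at 6 h, replicate 1 of GNF-7 at 6 h, replicate 2 of vehicle at 24 h, and replicates 1 and 2 of GNF-7 at 24 h, with values from -0.18 to -0.13. PSPH, SHMT1 and MTHFD2L had differences of -0.12, 0.25 and 0.04 that were not called, and SHMT1 was called at 0.40 (edgeR adjusted p 0.0484) without replicate 3 of GNF-7 at 6 h.

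Some of the levels also differed between the senescent vehicle groups at 6 h and 24 h. Both groups received DMSO, and the source of the difference was not tested. None of the 10 genes was called higher and 4 were called lower in vehicle at 24 h, where 9.26% of all genes were called higher and 9.29% lower. The median log2 fold change of the 10 was -0.09, against 0.01 over all genes. These were PSAT1 and PHGDH, each with a log2 fold change of -0.31, MTHFD2 at -0.25 and MTHFD1L at -0.18 (edgeR adjusted p 2.01e-07, 2.38e-06, 1.2e-05 and 0.00429). The rises at 24 h for these 4 genes are against a vehicle level lower than at 6 h. With total counts as the scale, the median of all genes in this comparison moved from 0.01 to -0.10 on the log2 scale and the calls from 1719 higher and 1724 lower to 627 higher and 4392 lower. On that scale 6 of the 10 were called lower, with MTHFD1 (-0.19) and ALDH1L2 (-0.22) added.

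GNF-7 at 6 h was also set beside cycling vehicle, both in the label 6 h, to see where the levels stood relative to those of cycling cells. Of the 10 genes, 4 were called higher than in cycling cells and 4 lower, where 39.6% of all genes were called higher and 36.1% lower. Their median log2 difference was -0.04, against 0.10 over all genes. This comparison shares its libraries with both earlier ones. ALDH1L2 stood 3.97-fold above the cycling level (log2 fold change 1.99), PSPH 1.38-fold, PSAT1 1.36-fold and MTHFD2 1.10-fold. SHMT1 and MTHFD1 stood at 0.328 and 0.350 of the cycling level, and SHMT2 and MTHFD1L at 0.818 and 0.849. PHGDH and MTHFD2L were not called, at log2 differences of 0.07 (95% interval -0.02 to 0.16) and -0.16 (-0.39 to 0.08). PHGDH was called higher, at 0.09 to 0.27, in 6 of the other fits and at 0.10 without replicate 2 of GNF-7 at 6 h. The call of MTHFD1L was lost with total counts (-0.09) and after removal of genes under a mean of 5 CPM (-0.03), and MTHFD2L turned to 0.05 after that removal.

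The mitochondrial and cytosolic forms were then compared within each library, as the ratio of their counts, which does not depend on library scaling. The mitochondrial form was higher relative to the cytosolic form after GNF-7 in each of the 5 pairs and at both times, with no overlap between treated and vehicle libraries. In an exact two-sided permutation test of 3 against 3 libraries the smallest possible p is 0.1, and each of these 10 comparisons gave 0.1 (0.1111 adjusted over 30 tests), so the design cannot reach the threshold. Among single genes, treated and vehicle libraries did not overlap for 47.7% of all genes at 6 h and 63.2% at 24 h. No such share was taken over pairs of genes. Several of the pairs share MTHFD1 as the cytosolic form, so they are not separate results. MTHFD1 was itself lower with GNF-7 at 24 h (log2 fold change -0.39), which enters those ratios. In the plot of isoenzyme ratios, each GNF-7 group stands above the vehicle group of its own time for each pair.

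**Figure D3:**
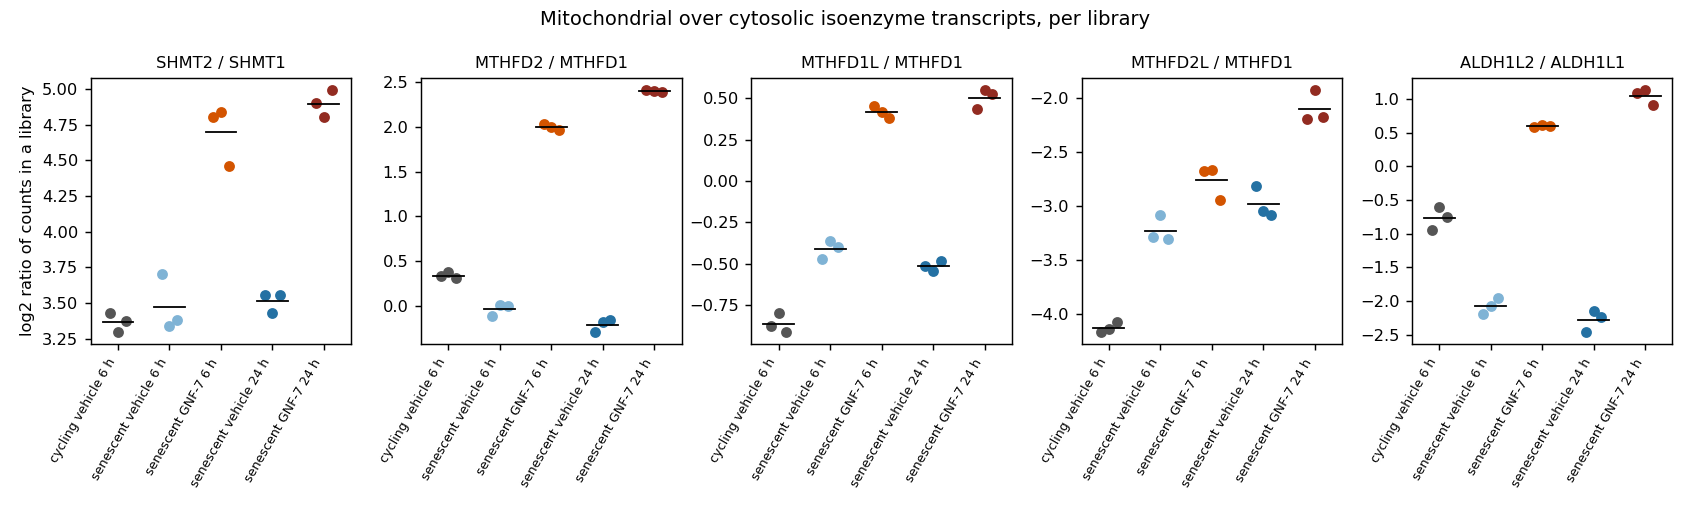
Log2 ratio of the counts of a mitochondrial to a cytosolic enzyme (vertical axes, each with its own range) in every library of the 5 groups. Points are libraries and lines the group means. For each of the 5 pairs the GNF-7 libraries lie above the vehicle libraries of the same time.

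For the hydroxymethyltransferases, SHMT2 over SHMT1 was 13.03, 10.1 and 10.4 in vehicle and 28.0, 28.6 and 22.0 after GNF-7 at 6 h. At 24 h the ratio was 11.8, 10.8 and 11.8 in vehicle and 29.9, 27.9 and 31.8 after GNF-7. Cycling cells had 10.8, 9.86 and 10.4 and overlapped the senescent vehicle libraries (exact permutation p = 0.6, two-sided). The ratio was 2.34-fold higher with GNF-7 than with vehicle at 6 h and 2.61-fold higher at 24 h.

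MTHFD2 over MTHFD1 set the mitochondrial dehydrogenase against the cytosolic enzyme that has the same activity in 1 of its domains. The ratio was 0.930, 1.01 and 1.00 in vehicle and 4.07, 3.99 and 3.91 after GNF-7 at 6 h. At 24 h it was 0.822, 0.885 and 0.898 in vehicle and 5.29, 5.27 and 5.23 after GNF-7, a 6.07-fold shift. Cycling cells had 1.26, 1.30 and 1.24, above senescent vehicle cells in every library. MTHFD1L over MTHFD1, the pair of formate-folate ligases, had a geometric mean of 0.551 in cycling cells. It was 0.753 and 0.701 in vehicle at 6 h and 24 h, and 1.33 and 1.42 after GNF-7. The ratio was 1.37-fold higher in senescent than in cycling vehicle cells with no overlap, the opposite direction to MTHFD2 over MTHFD1. Geometric means of MTHFD2L over MTHFD1 were likewise higher in senescent vehicle than in cycling cells (0.107 against 0.0574). They reached 0.147 and 0.232 after GNF-7.

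ALDH1L2 over ALDH1L1 had the largest shift of the 5 pairs with GNF-7. ALDH1L1, which held 1033 to 2332 counts in every library, was higher in senescent than in cycling vehicle cells (log2 fold change 0.68, edgeR adjusted p 2.31e-18) where ALDH1L2 was lower. After GNF-7 it was at -0.04 at 6 h, not called (edgeR adjusted p 0.551), and at -0.23 at 24 h (edgeR adjusted p 6.01e-05). The ratio was 0.219, 0.238 and 0.259 in vehicle and 1.504, 1.53 and 1.507 after GNF-7 at 6 h, a 6.36-fold shift. At 24 h it was 0.183, 0.225 and 0.213 in vehicle and 2.13, 2.18 and 1.87 after GNF-7, a 9.98-fold shift. These ratios of counts are not corrected for the length of the genes. Within the mitochondrial pair, MTHFD2 over MTHFD2L had a geometric mean of 22.1 in cycling cells. It was 9.19 in senescent vehicle cells at 6 h and 27.1 after 6 h of GNF-7.

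Levels of different genes can be compared only per length, here as CPM per kilobase of the principal transcript in GENCODE release 29. In cycling cells SHMT2 and PSAT1 were highest, both at 107, followed by MTHFD1 at 69.9, MTHFD2 at 62.3, PHGDH at 48.9, MTHFD1L at 33.5, PSPH at 24.7, SHMT1 at 10.6, MTHFD2L at 5.47 and ALDH1L2 at 3.24. After 24 h of GNF-7 the highest by this length were PSAT1 at 189, SHMT2 at 122, PHGDH at 91.7 and MTHFD2 at 66.8, with ALDH1L2 at 16.5 and MTHFD1 at 18.0. SHMT2 stood above SHMT1 per length in every group, 10.0-fold in cycling cells and 29-fold after 24 h of GNF-7. Much of the order between genes depended on the length used. In cycling cells PSAT1 and SHMT2 lay apart with merged exons, at 107 ± 1.11 and 55.9 ± 2.31 (SD, n = 3). There MTHFD2 was lower than MTHFD1 with principal transcripts (62.3 against 69.9) and higher with merged exons (57.0 against 23.4). After 24 h of GNF-7 the merged exons put PHGDH at 25.7, below MTHFD2 at 61.1, and ALDH1L2 at 14.6, above MTHFD1 at 6.03. In the same group ALDH1L2 was below ALDH1L1 with principal transcripts (16.5 against 18.5) and above it with merged exons (14.6 against 4.42). After 6 h of GNF-7 these values were 12.9 against 19.6 and 11.4 against 4.69.

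Exons of 6 of the 10 genes overlap exons on the opposite strand, and whether the counting used strand is not given in the sources used here. SHMT1, with 219 to 825 counts, shares 196 bases with SMCR8, which held 959 to 1517. MTHFD1 shares 178 with ZBTB25 (301 to 800 counts). ALDH1L2 shares 145 with C12orf45 (417 to 900) and SHMT2 33 with NDUFA4L2 (40 to 379). Reads from these stretches are uncertain. MTHFD2 shares 1324 bases with SLC4A5, which held at most 26 counts. Pseudogene copies of PSAT1, PSPH, SHMT1, MTHFD1 and MTHFD2 held at most 5 counts in any library.

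ATF4, the regulator named above, stood at 326 ± 0.848 CPM (SD, n = 3) in the cycling group. In the senescent vehicle group at 6 h it stood at 182 ± 7.89 CPM. After GNF-7 its transcript was at 433 ± 5.83 CPM at 6 h and 611 ± 10.7 CPM at 24 h, against 192 ± 3.84 CPM in vehicle at 24 h. The log2 fold changes were -0.84 in senescence, 1.25 with GNF-7 at 6 h and 1.67 at 24 h (edgeR adjusted p 2.07e-30, 1.65e-38 and 1.65e-45). Likeness of pattern was measured as the root-mean-square distance of centred log2 CPM over the 15 libraries, among 11207 genes with a mean of at least 5 CPM. Nearest to the mean profile of PHGDH, PSAT1 and PSPH were SLC1A4 (0.26 log2 units), CEBPG (0.27), NIBAN1 (0.30), GPT2 (0.34) and AARS1 (0.34). Nearest to that of SHMT2, MTHFD2, MTHFD1L and ALDH1L2 were AARS1 (0.13), GPT2 (0.18), GARS1 (0.18), ARHGEF2 (0.20) and ATF4 (0.23).

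A list of 48 other genes of serine, glycine, folate, methionine and purine metabolism was followed in the same fit, and 44 had enough counts to be tested. BHMT, FOLR1, SDS and TDH did not. In senescence 30 of the 44 were called lower and 8 higher, with a median log2 fold change of -0.54, where 34.4% of all genes were called lower and 35.6% higher. All 6 genes of purine synthesis fell. PAICS, a purine synthesis enzyme, went from 564 ± 12.6 to 164 ± 1.62 CPM (log2 fold change -1.79), and TYMS, which makes thymidylate, from 339 ± 6.90 to 126 ± 0.370 CPM (-1.43). After 6 h of GNF-7 both stood below cycling cells, at log2 differences of -1.99 and -1.43, a comparison in which 12 of the 44 were called higher and 27 lower (39.6% and 36.1% of all genes).

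With GNF-7 at 6 h, 11 of the 44 were called higher and 8 lower, and the median was -0.01. Over all genes 17.9% were called higher and 21.4% lower, so these shares lie near the background. The 3 genes with the smallest p act in transport and in the use of serine. SLC1A4, a carrier of serine and other small neutral amino acids, went from 9.66 ± 0.771 to 52.7 ± 2.78 CPM (log2 fold change 2.45), SLC1A5, a carrier of glutamine and other neutral amino acids, from 147 ± 7.91 to 375 ± 17.4 CPM (1.35), and CBS, which joins serine to homocysteine, from 1.43 ± 0.479 to 6.75 ± 1.07 CPM (2.24). At 24 h 11 were called higher, a share near the background of 29.3%, and 21 lower, where 29.7% of all genes were. SLC1A4 and SLC1A5 were higher (2.50 and 1.08), and SPTLC2, a subunit of the enzyme that uses serine for sphingolipids, was lower (-1.01, from 63.2 ± 3.93 to 31.3 ± 1.11 CPM). In the plot of other pathway genes, the purine group lies near 0 at 6 h of GNF-7 and mostly below 0 at 24 h. Of its 6 genes 5 were called lower at 24 h.

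**Figure D4:**
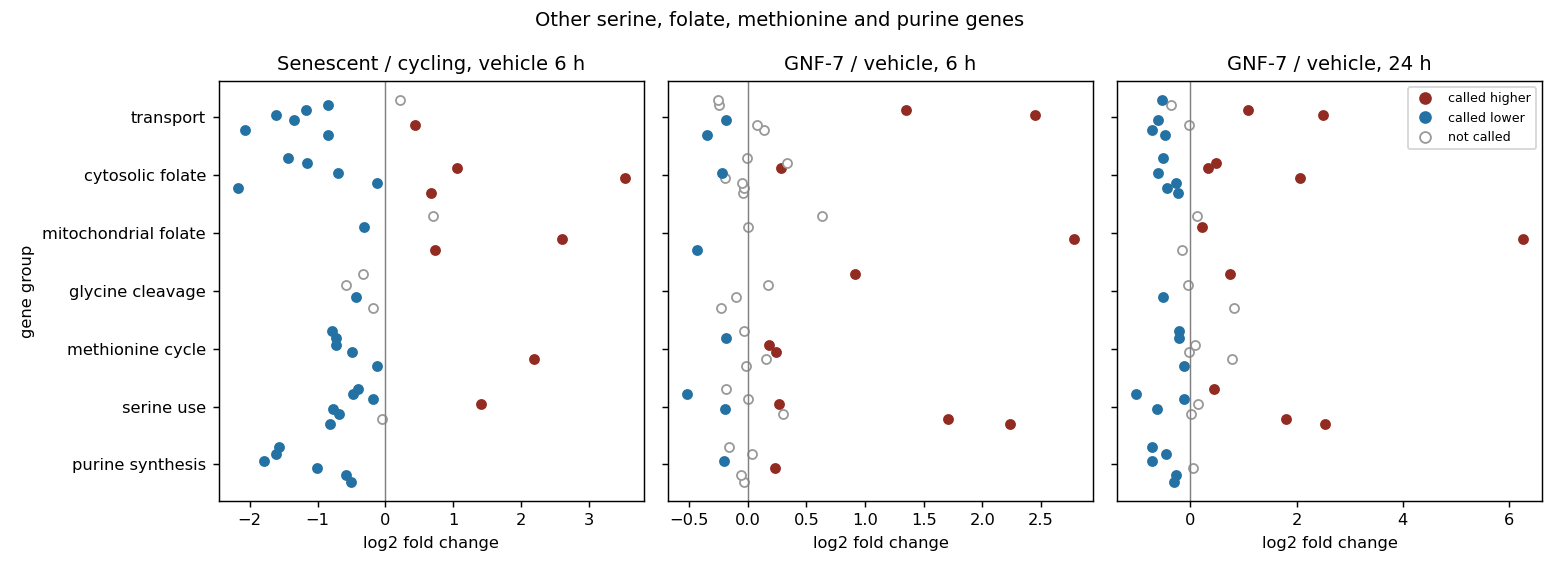
Log2 fold change (horizontal axes) of the 44 tested genes of the wider list, grouped by role (vertical axis), in 3 comparisons. Each point is a gene, red if called higher, blue if called lower and open if not called. Purine synthesis genes lie below 0 in senescence, and the point at 6.27 in the 24 h panel is DMGDH.

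The interaction was called in 22 of the 44 genes, 3 higher and 19 lower (12.8% and 18% of all genes), with a median of -0.18, and all 6 purine genes were among those called lower. PAICS had a difference of -0.52 and TYMS of -0.52 between the effects at 24 h and at 6 h, and PAICS stood at 93.9 ± 0.810 CPM after 24 h of GNF-7 against 155 ± 8.15 CPM in vehicle. FTCD, which feeds carbon units from histidine into folate, had a difference of 2.27, with 36 to 42 counts in vehicle and 144 to 206 after GNF-7 at 24 h. In vehicle at 24 h against 6 h, 2 of the 44 were called higher and 11 lower (9.26% and 9.29% of all genes), among them the purine synthesis gene GART (-0.21) and the folate carriers SLC46A1 (-0.54) and SLC19A1 (-0.30). With total counts as the scale these became 0 and 18, where 627 of all 18563 genes were called higher and 4392 lower. DMGDH, a mitochondrial enzyme that passes a carbon unit from dimethylglycine to folate, was chosen after its values were seen, for its fold: it held 0 to 4 counts in vehicle and 175 to 216 after GNF-7 at 24 h.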

How the data were processed

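The authors deposited raw read counts, 1 row per Ensembl identifier, for 15 mRNA libraries. Per the labels' protocols, a stranded mRNA kit was used. bcl2fastq 2.20.0.422, STAR 2.7.9a, featureCounts 1.5.1 and GRCh38 are named in the submitters' processing notes. The annotation release and strand setting are not given in the sources used here. Of 60673 rows, 3 belong to 1 entry split over lines and were dropped. Symbols were matched for 60400 genes (99.55%).

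In R 4.3.3, edgeR 4.0.16 filtered the counts (filterByExpr), scaled them (TMM) and fitted 1 robust quasi-likelihood model to the 15 libraries, with 5 group means and no block. Calls needed a Benjamini-Hochberg adjusted p under 0.05. CPM uses TMM-scaled library sizes, SD is over 3 libraries, and 95% intervals use the SE with 10 residual degrees of freedom. Ratios were taken after adding 0.5 to each count. DESeq2 (1.42.0) and limma voom (3.58.1) were alternatives. The code was tested on simulated data.

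The genes, lists and tests were chosen with earlier results of these data known. The genes named from the wider list were the 3 with the smallest p in each comparison. A gene that this rule names is not reported here. In each group the libraries differed from one another by more than sampling noise.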

Additional observations from a re-analysis of the deposited data

Results flagged for a closer look

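In 7 of the 10 enzyme genes the response to GNF-7 was not the same at both times, by a test of the difference itself (edgeR interaction, adjusted over all genes). Over all genes 12.8% were called higher and 18% lower by this test. The call of MTHFD1L was lost in 9 of 24 alternatives. The differences on the log2 scale, 24 h minus 6 h, were 1.15 for PHGDH, 0.69 for PSAT1, 0.46 for ALDH1L2, 0.42 for SHMT2, 0.21 for MTHFD2, -0.18 for MTHFD1L and -0.37 for MTHFD1. Of the 3 genes named by smallest p from the wider list, PAICS had -0.52, TYMS -0.52 and FTCD 2.27. The vehicle level of PHGDH, PSAT1, MTHFD2 and MTHFD1L also fell between 6 h and 24 h, which enters their differences. The GNF-7 level of MTHFD2 was 306 ± 16.9 CPM at 6 h and 298 ± 10.1 CPM at 24 h.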

How the results depend on the processing

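Of 1440 values of the 10 genes under alternatives, 1398 kept direction and call, 11 lost the call, 11 gained it and 20 changed sign. Of 574 values of the other named genes, ATF4 included, 573 kept both. Of 240 values of the ratios, which cannot be called, 237 kept direction. The number of the 10 genes called stayed within 1.5 times the reported number in every comparison, at 10 in senescence, 8 to 9 for GNF-7 at 6 h and 9 at 24 h. No value that was called changed sign. In vehicle at 24 h against 6 h, the uncalled value of PSPH turned to -0.11 with total counts, -0.00685 with mitochondrially encoded genes left out, -0.011 without a filter, -0.00244 when only these groups were fitted, and -0.000287 with the replicate block. With total counts SHMT1 turned to -0.091, SHMT2 to -0.048 and ATF4 to -0.038 in the same comparison. A filter at a mean of 5 CPM turned MTHFD1 with GNF-7 at 6 h to 0.0301 and MTHFD2L against cycling cells to 0.049. The MTHFD1L interaction lost its call with total counts (-0.16), without a filter (-0.18) and with the 5 CPM filter (-0.13). The causes were not tested.

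With 1 library left out, the value in vehicle at 24 h against 6 h ranged from -0.032 to 0.055 for PSPH and from -0.0709 to 0.0802 for SHMT1, that of MTHFD1 with GNF-7 at 6 h from -0.051 to 0.028, and the MTHFD2L interaction from -0.039 to 0.13. The log2 change of SHMT2 over SHMT1 ranged from -0.008 to 0.17 in senescence and from -0.027 to 0.15 in vehicle over time.
Libraries were not treated as pairs in the reported fit. Deviations from the group mean were correlated more often between same-numbered libraries. Of such pairs, 12 of 30 had correlations over 0.1, against 3 of 60 pairs with different numbers. The median correlations were 0.0128 and -0.016, and 7 of 15 libraries correlated best with their own number. With the replicate block, 7481 genes were called with GNF-7 at 6 h and 11031 at 24 h, against 7286 and 10940, and the number of the 10 genes called was the same in each comparison. SHMT1 and MTHFD2L, with 218 to 825 counts, had the widest intervals.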
